A study of Mus musculus with 24 samples.

Results

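The comparison is the Hoil1 by Il4ra interaction in the CD45- cells of the mouse ileum, that is, how far the effect of losing Hoil1 in mice with the Vil1cre transgene differed from the effect of losing it in mice without the transgene. All 12 CD45- libraries of the 24 in the series were used, 3 for each of 4 genotypes, and the main results are also given for the 11 libraries left when library 23 is taken out, because the study's list of analyzed samples does not hold that library and its methods say that outliers of a principal component analysis were removed. Hoil1+/+ f/f mice (libraries 6, 7 and 8) have intact Hoil1 and Il4ra flanked by loxP sites. Hoil1-/- f/f mice (libraries 1, 2 and 23) carry the Rbck1tm1Kiwa allele in every cell on the same floxed Il4ra background. Hoil1+/+ Vil1cre mice (libraries 9, 10 and 11) and Hoil1-/- Vil1cre mice (libraries 3, 4 and 5) carry in addition a Cre transgene under the villin promoter, which is active in intestinal epithelial cells (IECs), so that Il4ra is removed from IECs and kept in endothelial, stromal and hematopoietic cells. All mice were on a C57BL/6 background (C57BL/6J in the study's methods), all were floxed on both Il4ra alleles, and the library labels gave ages from 9 to 10.3 weeks and no sex, where the study used males and females. The IEC suspension, of which a part was used, and the lamina propria suspension of an ileum were combined before live CD45- singlets were sorted, so a library holds epithelial, endothelial and stromal cells in proportions that the preparation also sets. Ages were 10.3, 9 and 9.1 weeks for Hoil1+/+ f/f and 9.4, 9.4 and 9.9 weeks for Hoil1-/- f/f libraries, in the order given. They were 9.7, 9.7 and 9 weeks for Hoil1+/+ Vil1cre and 9.6, 9.6 and 9.1 weeks for Hoil1-/- Vil1cre libraries. The labels do not say whether the 3 libraries of a group came from mice of different litters.

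HOIL1, encoded by Rbck1, is a subunit of the linear ubiquitin chain assembly complex, which attaches linear ubiquitin chains to signaling proteins downstream of TNF and other receptors and so feeds NF-kappaB activation and limits cell death. IL4Ra is the shared signaling chain of the receptors for IL-4 and IL-13, and in IECs it acts through STAT6 to drive tuft and goblet cell expansion and the type 2 response genes. Tuft cells release IL-25, which activates group 2 innate lymphoid cells, and these cells return IL-13 to the epithelium. The villus epithelium is mostly enterocytes that digest and absorb nutrients, and beneath it lie blood and lymphatic vessels, fibroblasts, pericytes and strands of smooth muscle.

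Levels are given as normalized read counts (CPM), in which the counts of a gene are divided by the library total after scaling between libraries by the TMM method of edgeR. The values of the 3 libraries of a group are listed in the order of libraries given above. The interaction is the Hoil1 effect (Hoil1-/- minus Hoil1+/+, on the log2 scale) in Vil1cre mice minus that in f/f mice, so a negative interaction means that a gene stood lower after Hoil1 loss with Vil1cre than the f/f mice would have given. Rbck1 was 104, 122 and 98.8 CPM in Hoil1+/+ f/f, 3.21, 7.94 and 0 in Hoil1-/- f/f, 119, 84.3 and 102 in Hoil1+/+ Vil1cre and 4.83, 7.91 and 3.63 in Hoil1-/- Vil1cre libraries. Every library labeled Hoil1-/- lay far below every Hoil1+/+ library in both Il4ra genotypes. Its interaction was 0.60 (SE 1.12, adjusted p = 0.855) by edgeR's quasi-likelihood test, which gave every SE and adjusted p of an interaction below. Il4ra itself was 63.7, 173 and 89.9 CPM in Hoil1+/+ f/f, 67.8, 90.0 and 77.1 in Hoil1-/- f/f, 51.4, 61.2 and 135 in Hoil1+/+ Vil1cre and 145, 100.0 and 74.4 in Hoil1-/- Vil1cre libraries, with groups that overlapped. Because its reads are summed over the whole gene and all CD45- cells these values do not check the deletion in IECs. Ptprc, which encodes CD45, was 2.85, 0 and 0 CPM in Hoil1+/+ f/f, 11.8, 17.9 and 4.54 in Hoil1-/- f/f, 1.91, 3.82 and 0.279 in Hoil1+/+ Vil1cre and 2.15, 0.444 and 0.495 in Hoil1-/- Vil1cre libraries. Its highest values were in Hoil1-/- f/f libraries. The libraries held 6.03 to 68.3 M counts on genes and 13003 to 17013 detected genes, and 3 counts corresponded to 0.0398 to 0.495 CPM. Library 23 had the most Hba-a1, an erythrocyte hemoglobin gene chosen after its values were seen, at 5974 CPM against 382 to 1481 CPM in the other 11. Xist, a transcript of female cells chosen in the same way, was above 100 CPM in 4 libraries (23, 9, 10 and 4) and at 0 in the other 8.

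Cell composition moved with the interaction. The summed level of 18 pan-epithelial markers was 13417, 3851 and 6002 CPM in Hoil1+/+ f/f, 23211, 20238 and 7021 in Hoil1-/- f/f, 21034, 18985 and 5923 in Hoil1+/+ Vil1cre and 5162, 2428 and 12458 in Hoil1-/- Vil1cre libraries. Libraries 1 and 2 were the highest of the f/f mice, and libraries 9 and 10 were the highest of the Vil1cre mice, so epithelial RNA was on balance higher after Hoil1 loss without Vil1cre and lower after Hoil1 loss with it. The summed level of 20 blood endothelium markers was 6373, 22531 and 12829 CPM in Hoil1+/+ f/f, 4082, 7849 and 14077 in Hoil1-/- f/f, 6961, 6783 and 20136 in Hoil1+/+ Vil1cre and 22637, 26619 and 11114 in Hoil1-/- Vil1cre libraries. The summed level of 18 fibroblast markers was 2487, 8914 and 11245 CPM in Hoil1+/+ f/f, 1774, 6417 and 15900.3 in Hoil1-/- f/f, 3694, 2116 and 6881 in Hoil1+/+ Vil1cre and 14700.2, 18395 and 7894 in Hoil1-/- Vil1cre libraries. Endothelial RNA thus ran opposite to epithelial RNA, and so did fibroblast RNA in Vil1cre mice. The groups overlapped except for the fibroblast sum, which was higher in every Hoil1-/- Vil1cre library than in any Hoil1+/+ Vil1cre library. The log2 ratio of the epithelial sum to the endothelial and fibroblast sums was 0.60, -3.03 and -2.00 in Hoil1+/+ f/f, 1.99, 0.50 and -2.09 in Hoil1-/- f/f, 0.98, 1.09 and -2.19 in Hoil1+/+ Vil1cre and -2.85, -4.21 and -0.61 in Hoil1-/- Vil1cre libraries. Its mean was 1.61 higher in Hoil1-/- than in Hoil1+/+ f/f libraries and -2.52 in the same difference with Vil1cre, an interaction of -4.13, where the SD within a group was 1.82 to 2.07 (n = 3). In each group the library whose age differed most from the others (6, 23, 11 and 5) also had the ratio farthest from theirs. Whether age or litter had a part in the ratio was not tested. In bulk samples, fewer cells of a type and less RNA per cell cannot be told apart. The ratio was therefore added as a covariate in an alternative fit, called the composition fit below. The value of that fit stands beside most groups of genes. The ratio was computed from the epithelial, endothelial and fibroblast markers, so their own values in that fit are not independent of the covariate. The 18 pan-epithelial genes had 9 with an interaction below 0 at an unadjusted p under 0.05 and none above 0, with a median of -1.97, or -0.42 in the composition fit.

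**Figure D1:**
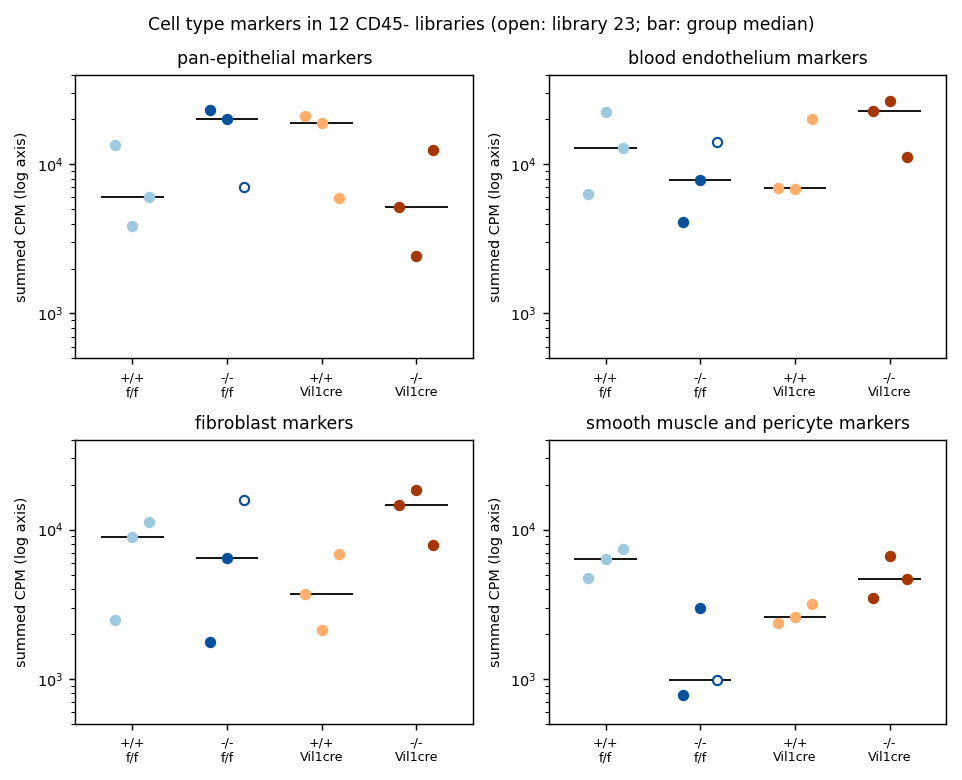
Summed CPM of 4 cell type marker lists in each of 12 CD45- libraries, on a log axis, by genotype; each point is a library, the open point is library 23 and the bar is the group median. Epithelial and endothelial sums run opposite to each other, and the smooth muscle and pericyte sum is the one whose groups separate in opposite directions, lower in all 3 Hoil1-/- f/f libraries and higher in all 3 Hoil1-/- Vil1cre libraries than in their Hoil1+/+ counterparts.

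Over the 15332 genes tested in 12 libraries, no interaction had an adjusted p under 0.05 (0% called, edgeR's quasi-likelihood test with Benjamini-Hochberg adjustment), and the smallest adjusted p was 0.274, shared by 639 genes. At an unadjusted p under 0.05 there were 2151 genes (14% of those tested), 1123 with an interaction above 0 (7.32%) and 1028 below 0 (6.7%). Other tools gave other counts at the adjusted threshold, with 358 genes by edgeR's likelihood ratio test, 479 by DESeq2 and 2074 by limma voom with library quality weights. Without library 23, 16453 genes were tested, none had an adjusted p under 0.05 (smallest 0.0791, edgeR), and 3409 had an unadjusted p under 0.05 (20.7%), 1856 above 0 (11.3%) and 1553 below 0 (9.44%). With the composition covariate the unadjusted count was 950 (6.2%), of which 583 were above 0 (3.8%) and 367 below 0 (2.39%). The genes named below therefore differ in direction and size, and none of them passed the adjusted threshold in the quasi-likelihood fit of 12 libraries. The median interaction over all genes tested was 0.18, against which the medians of gene lists are to be read. Counts of list genes at an unadjusted p under 0.05 are likewise to be read against the shares above for the same sign and fit.

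The Hoil1 effects in the 2 Il4ra genotypes pointed in opposite directions for most genes. In f/f mice 396 genes were higher in Hoil1-/- (2.58%) and 992 lower (6.47%) at an unadjusted p under 0.05, and in Vil1cre mice 317 were higher (2.07%) and 596 lower (3.89%). Without library 23 the numbers were 865 higher (5.26%) and 1296 lower (7.88%) in f/f mice and 433 higher (2.63%) and 828 lower (5.03%) in Vil1cre mice. In that fit 6 genes passed the adjusted threshold in f/f mice (0.0365%), of which 3 are tuft cell genes (Lrmp, Trpm5 and Avil) and the others Rbck1, Ptpn18 and Egln3, and 1 gene, Rbck1, passed in Vil1cre mice (0.00608%). With all 12 libraries the smallest adjusted p was 0.178 in f/f and 0.805 in Vil1cre mice by the same edgeR test. Estimates were above 0 in f/f and below 0 in Vil1cre mice for 4272 genes (27.9%) and the reverse for 5534 genes (36.1%). With an unadjusted p under 0.05 in both genotypes, 60 genes were higher in f/f and lower in Vil1cre mice (0.391%), 78 were the reverse (0.509%), and 17 had the same direction (0.111%). Without library 23 these counts were 269 (1.63%), 96 (0.583%) and 17 (0.103%). All 3 Hoil1-/- libraries were above all 3 Hoil1+/+ libraries in f/f mice and below them in Vil1cre mice for 51 genes (0.333%), and the reverse held for 173 genes (1.13%). Without library 23 these were 273 (1.66%) and 310 genes (1.88%). The Hoil1 effects in the 2 genotypes share no library.

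Of 39 lists of cell type markers and pathway genes, 19 had a median effect above 0 in f/f and below 0 in Vil1cre mice, and 8 had the reverse. Without library 23 these numbers were 21 and 11. The first set included enterocyte digestion and absorption, xenobiotic metabolism, MHC class II presentation and oxidative phosphorylation, and the second included smooth muscle, endothelium, extracellular matrix and interferon-stimulated genes. In the composition fit 25 of 39 lists kept the sign of their median interaction, and 30 had a median of at most 1 in size, whereas 23 exceeded 1 in size without the covariate. When libraries were scaled by their pan-epithelial counts, which moved the median interaction of all genes to 2.56, 18 of the 39 list medians turned from below to above 0, among them oxidative phosphorylation, MHC class II presentation, goblet cell and cell death genes, and 17 of these 18 were still below the median of all genes. When each library was left out in turn, 32 of the 39 list medians had the same sign in every fit.

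**Figure D2:**
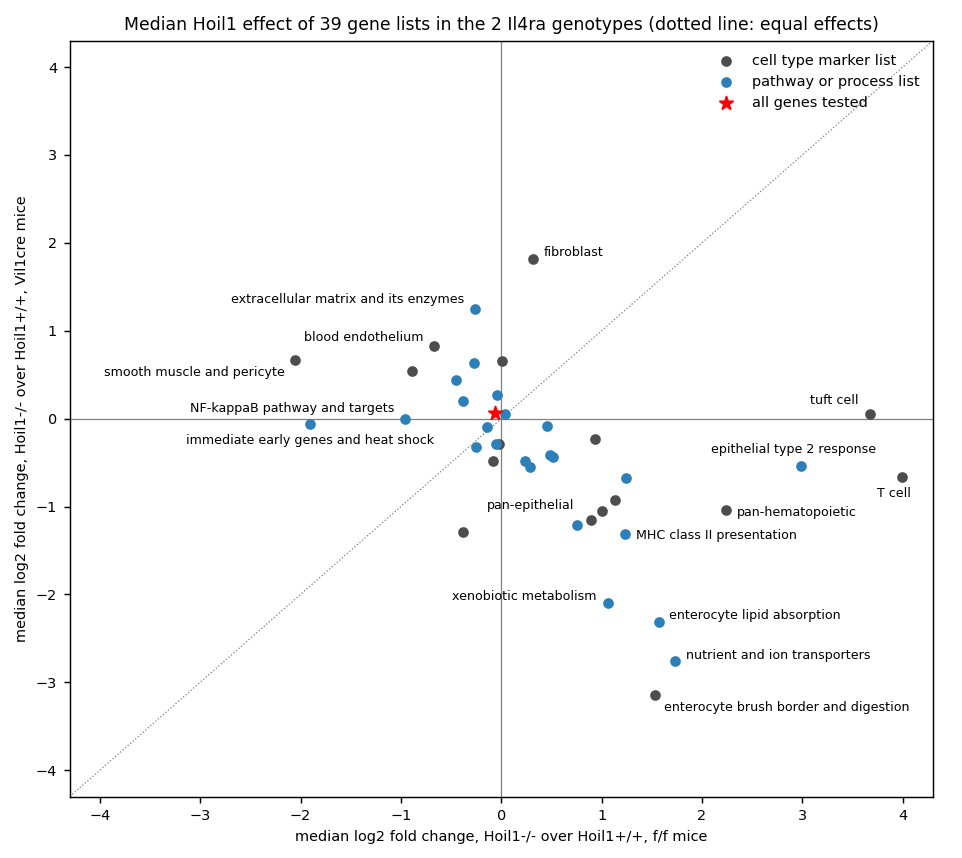
Median log2 fold change of Hoil1-/- over Hoil1+/+ in f/f mice (x) and in Vil1cre mice (y) for 39 gene lists, with all genes tested as a star and equal effects as a dotted line. Enterocyte lists fall in the lower right (brush border 1.53 and -3.15), smooth muscle and pericyte in the upper left (-2.05 and 0.67), and tuft cell (3.67 and 0.05) and immediate early genes (-1.90 and -0.06) lie near 0 on the y axis.

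Enterocyte digestion and absorption genes had opposite Hoil1 effects in the 2 genotypes, above 0 in f/f and below 0 in Vil1cre mice. Of 22 brush border and digestion genes tested, 19 had an interaction below 0 at an unadjusted p under 0.05 and none above 0, with a median of -4.74 (1.53 in f/f, -3.15 in Vil1cre mice), where 6.7% of all genes did. Anpep, the brush border aminopeptidase N, was 1486, 349 and 366 CPM in Hoil1+/+ f/f, 3645, 2509.8 and 307 in Hoil1-/- f/f, 4709, 5100.0 and 731 in Hoil1+/+ Vil1cre and 226, 136 and 560.1 in Hoil1-/- Vil1cre libraries. Enpep, glutamyl aminopeptidase, was 169, 62.8 and 70.5 CPM in Hoil1+/+ f/f, 426, 260.4 and 44.7 in Hoil1-/- f/f, 484, 551 and 154 in Hoil1+/+ Vil1cre and 38.98, 29.9 and 55.3 in Hoil1-/- Vil1cre libraries. Mep1b, the beta subunit of meprin A, was 150.4, 42.9 and 47.8 CPM in Hoil1+/+ f/f, 509, 440.5 and 36.6 in Hoil1-/- f/f, 719, 806 and 97.9 in Hoil1+/+ Vil1cre and 29.2, 18.5 and 82.5 in Hoil1-/- Vil1cre libraries. In each of these genes all 3 Hoil1-/- Vil1cre libraries were below all 3 Hoil1+/+ Vil1cre libraries, whereas the f/f groups overlapped through library 23. The interactions were -5.07 (SE 1.40, adjusted p = 0.274) for Anpep, -4.54 (SE 1.03, adjusted p = 0.274) for Enpep and -5.68 (SE 1.43, adjusted p = 0.274) for Mep1b. Sis, the sucrase-isomaltase that cleaves disaccharides, was 162, 117 and 82.7 CPM in Hoil1+/+ f/f, 667, 157 and 25.6 in Hoil1-/- f/f, 421, 350.1 and 153 in Hoil1+/+ Vil1cre and 36.7, 13.5 and 54.6 in Hoil1-/- Vil1cre libraries. The Sis interaction was -4.38 (SE 1.27, adjusted p = 0.274). The villin gene Vil1, whose promoter drives the Cre and whose product bundles actin in microvilli, was 752, 195 and 235 CPM in Hoil1+/+ f/f, 1778, 1148 and 231 in Hoil1-/- f/f, 1624, 1535 and 317 in Hoil1+/+ Vil1cre and 198, 87.1 and 461 in Hoil1-/- Vil1cre libraries.

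In Vil1cre mice 16 of 22 brush border genes were lower in Hoil1-/- libraries at an unadjusted p under 0.05 (3.89% of all genes). In f/f mice none was higher at that level with all 12 libraries, and 9 of 22 were without library 23. Without library 23, 20 of 22 had an interaction below 0 at that level, and the median was -5.23. In the composition fit 7 of 22 did, with a median of -1.13, among them Anpep (-1.62), Enpep (-1.94) and Mep1b (-2.02). Per 100 CPM of pan-epithelial markers, the brush border sum was 59.1, 91.1 and 43.4 CPM in Hoil1+/+ f/f, 81.3, 60.9 and 36.6 in Hoil1-/- f/f, 91.7, 113 and 81.9 in Hoil1+/+ Vil1cre and 54.7, 126 and 31.6 in Hoil1-/- Vil1cre libraries. The groups of this sum overlapped in both genotypes. Gene by gene with pan-epithelial scaling, 8 of 22 had an interaction below 0 at an unadjusted p under 0.05 (0.437% of all genes) and none above 0. The median was then -2.39, against 2.56 for all genes. In Vil1cre mice 12 of 22 were lower in Hoil1-/- libraries at that level with this scaling.

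Nutrient and ion transporters followed the same course, with 20 of 24 genes below 0 at an unadjusted p under 0.05 and a median interaction of -4.53 (1.74 in f/f, -2.76 in Vil1cre mice). All 24 had an estimate above 0 in f/f and below 0 in Vil1cre mice, against 27.9% of all genes. Slc3a1, the heavy chain of the cystine and dibasic amino acid transporter, was 49.7, 9.33 and 16.6 CPM in Hoil1+/+ f/f, 167, 181 and 15.6 in Hoil1-/- f/f, 151, 152 and 24.1 in Hoil1+/+ Vil1cre and 9.14, 7.34 and 33.3 in Hoil1-/- Vil1cre libraries. Slc2a5, the fructose transporter GLUT5, was 9.25, 7.17 and 3.24 CPM in Hoil1+/+ f/f, 53.1, 18 and 36.8 in Hoil1-/- f/f, 21.8, 10.7 and 5.92 in Hoil1+/+ Vil1cre and 0.315, 1.57 and 7.26 in Hoil1-/- Vil1cre libraries. For Slc2a5 every Hoil1-/- f/f library, library 23 included, exceeded every Hoil1+/+ f/f library, whereas for Slc3a1 library 23 was among the low libraries. The interactions were -5.01 (SE 1.41, adjusted p = 0.274) for Slc3a1, -4.59 (SE 1.31, adjusted p = 0.274) for Slc2a5 and -4.90 (SE 1.39, adjusted p = 0.274) for Slc7a9, the light chain partner of Slc3a1. With the composition covariate 3 of 24 transporters had an unadjusted p under 0.05, all below 0, and the median was -0.98. Slc2a5 (-3.48) and Slc3a1 (-1.68) were 2 of the 3.

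Genes of lipid absorption had a median interaction of -4.02 (1.57 in f/f, -2.32 in Vil1cre mice), with 11 of 21 below 0 at an unadjusted p under 0.05 (6.7% of all genes). Mttp, the microsomal transfer protein that loads lipid onto apolipoprotein B, was 185, 91.7 and 93.9 CPM in Hoil1+/+ f/f, 559.9, 366 and 85.4 in Hoil1-/- f/f, 724, 457 and 69.2 in Hoil1+/+ Vil1cre and 49.6, 21.4 and 94.9 in Hoil1-/- Vil1cre libraries. The Mttp interaction was -4.37 (SE 1.2, adjusted p = 0.274). Mogat2, which re-esterifies monoacylglycerol in enterocytes, had an interaction of -4.62 (SE 1.38, adjusted p = 0.274). Apoa1, the apolipoprotein of high-density lipoprotein and chosen after its values were seen, was 9247, 476 and 901 CPM in Hoil1+/+ f/f, 17797, 13072 and 752 in Hoil1-/- f/f, 23159.8, 26868 and 449.8 in Hoil1+/+ Vil1cre and 492, 109 and 8657 in Hoil1-/- Vil1cre libraries. It was highest in the libraries with the highest epithelial ratio (1, 2, 5, 6, 9 and 10). The median of this list in the composition fit was -0.24, and the interaction of Apoa1 was 1.12 there against -4.02 without the covariate.

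Xenobiotic metabolism genes, which detoxify dietary compounds in enterocytes, had a median interaction of -3.49 (1.06 in f/f, -2.10 in Vil1cre mice). Of 30 tested, 13 were below 0 (6.7% of all genes) and 1 above 0 (7.32%) at an unadjusted p under 0.05. Cyp3a25, a cytochrome P450, was 22.8, 2.61 and 2.89 CPM in Hoil1+/+ f/f, 43.0, 10.3 and 10.1 in Hoil1-/- f/f, 27.7, 59.8 and 13.2 in Hoil1+/+ Vil1cre and 0, 0 and 0.3301 in Hoil1-/- Vil1cre libraries. There were so few counts in Hoil1-/- Vil1cre libraries that no fold is given. Sult1d1, a cytosolic sulfotransferase, was 21.9, 14.1 and 13.7 CPM in Hoil1+/+ f/f, 83.6, 35.3 and 22.8 in Hoil1-/- f/f, 82.4, 119.7 and 16.1 in Hoil1+/+ Vil1cre and 12.2, 5.25 and 19.1 in Hoil1-/- Vil1cre libraries. All 3 Hoil1-/- f/f libraries were above the Hoil1+/+ f/f libraries. Gstm1, a glutathione transferase, was the gene above 0, at 76.5, 139.6 and 162 CPM in Hoil1+/+ f/f, 47.1, 94.3 and 84.8 in Hoil1-/- f/f, 57.8, 80.0 and 103 in Hoil1+/+ Vil1cre and 149, 200.4 and 127 in Hoil1-/- Vil1cre libraries. The median of the list in the composition fit was -0.40.

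Mitochondrial genes had smaller differences in the same direction. All 36 oxidative phosphorylation genes tested had an estimate above 0 in f/f and below 0 in Vil1cre mice, against 27.9% of all genes. Their median interaction was -0.99 (0.52 and -0.44), and 12 of 36 were below 0 at an unadjusted p under 0.05 (6.7% of all genes). With pan-epithelial scaling this direction turned, and all 36 had an interaction above 0 with a median of 1.52, against 2.56 for all genes, while 34 were below 0 in f/f and above 0 in Vil1cre mice. Cox7c, a subunit of cytochrome c oxidase, was 93.6, 67.3 and 87.1 CPM in Hoil1+/+ f/f, 169, 151 and 101 in Hoil1-/- f/f, 119, 156 and 76.9 in Hoil1+/+ Vil1cre and 68.1, 51.3 and 99.5 in Hoil1-/- Vil1cre libraries. Sdhb, the iron-sulfur subunit of succinate dehydrogenase, was 155, 74.9 and 106 CPM in Hoil1+/+ f/f, 349, 219 and 115 in Hoil1-/- f/f, 242, 250.3 and 91.3 in Hoil1+/+ Vil1cre and 102, 71.5 and 152 in Hoil1-/- Vil1cre libraries. The Hoil1-/- f/f libraries were all above the Hoil1+/+ f/f libraries for Cox7c, whereas library 23 overlapped them for Sdhb. Among 24 genes of fatty acid oxidation and PPAR targets the median was -0.87 and 7 were below 0 at that level. Slc25a20, the carrier that brings acylcarnitines into mitochondria, was 22.8, 18.96 and 18.5 CPM in Hoil1+/+ f/f, 44.6, 57.5 and 28.0 in Hoil1-/- f/f, 56.6, 45.4 and 24.2 in Hoil1+/+ Vil1cre and 19.9, 21.5 and 17.8 in Hoil1-/- Vil1cre libraries. Its groups were apart in both genotypes and in opposite directions. The Slc25a20 interaction was -2.20 (SE 0.51, adjusted p = 0.274) and -1.53 in the composition fit. Ehhadh, a peroxisomal beta-oxidation enzyme, was 26.5, 14.6 and 14.1 CPM in Hoil1+/+ f/f, 51.2, 22.5 and 17.2 in Hoil1-/- f/f, 46.2, 62.1 and 15.5 in Hoil1+/+ Vil1cre and 11.98, 3.995 and 12.2 in Hoil1-/- Vil1cre libraries. It was lower in all 3 Hoil1-/- Vil1cre libraries than in the controls. The list medians in the composition fit were -0.09 for oxidative phosphorylation and -0.29 for fatty acid oxidation. Cholesterol synthesis genes had a median of -0.91 with 2 of 21 below 0 at an unadjusted p under 0.05, and 0.01 in the composition fit.

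**Figure D3:**
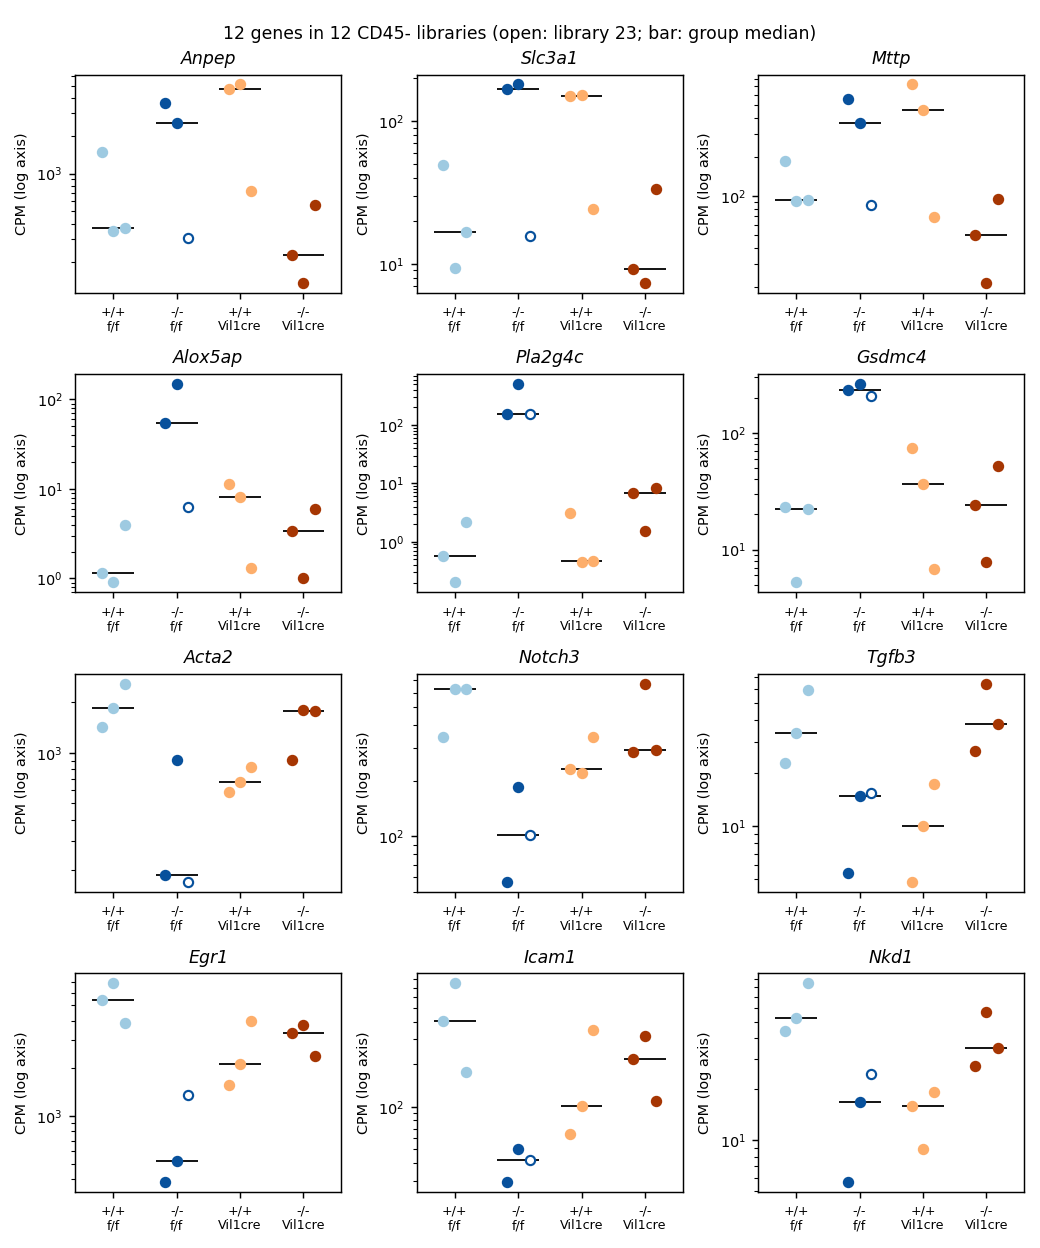
CPM on a log axis of 12 genes in each of 12 CD45- libraries by genotype; each point is a library, the open point is library 23 and the bar is the group median. Anpep, Slc3a1 and Mttp are low in library 23 and in all Hoil1-/- Vil1cre libraries, Pla2g4c and Gsdmc4 are high in all 3 Hoil1-/- f/f libraries, and Acta2, Tgfb3 and Nkd1 are lower in Hoil1-/- f/f and higher in Hoil1-/- Vil1cre than in the matching Hoil1+/+ libraries.

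Tuft cell genes and the epithelial type 2 response were displaced in f/f mice. The promoter segments of members that hold a STAT6-type palindrome are shown first, because IL4Ra signals through STAT6. Whether STAT6 acts on these genes directly was not tested. The motif TTCNNNNGAA was searched on both strands of the 300 bases around the RefSeq start of each gene (250 before and 50 after, GRCm38.p6). It was found in 3 of 13 type 2 response genes with a promoter in the table (23.1%) and in 5 of 24 tuft cell genes (20.8%). Of smooth muscle and pericyte genes 2 of 11 held it (18.2%), and of immediate early and heat shock genes 0 of 21. In all, 2164 of 27025 promoters did (8.01%). The 3 type 2 matches are the near-identical copies Sprr2a1, Sprr2a2 and Sprr2a3, which share 1 segment, so they are not independent. The motif is in capitals.
Sprr2a3 (chr3:92285108-92285157, plus strand): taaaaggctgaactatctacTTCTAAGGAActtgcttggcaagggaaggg
Dclk1 (chr3:55242114-55242156, plus strand): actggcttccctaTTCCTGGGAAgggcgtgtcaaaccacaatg
A match is a description of the letters and no evidence that STAT6 binds there.

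Of 27 tuft cell genes tested, 14 had an interaction below 0 at an unadjusted p under 0.05 and none above 0, with a median of -3.15. The median effect was 3.67 in f/f and 0.05 in Vil1cre mice, with 19 genes higher in Hoil1-/- at an unadjusted p under 0.05 in f/f (2.58% of all genes) and 2 in Vil1cre mice (2.07%). Alox5ap, the activating protein of 5-lipoxygenase in leukotriene synthesis, was 1.14, 0.903 and 3.92 CPM in Hoil1+/+ f/f, 54.8, 148 and 6.27 in Hoil1-/- f/f, 11.3, 8.09 and 1.30 in Hoil1+/+ Vil1cre and 3.36, 1.01 and 5.94 in Hoil1-/- Vil1cre libraries. Libraries 1 and 2 were the highest of all 12 for Alox5ap, and library 23 was above every Hoil1+/+ f/f library by a small margin. Lrmp, an endoplasmic reticulum protein of tuft cells, was 1.99, 2.76 and 1.71 CPM in Hoil1+/+ f/f, 71.9, 122 and 9.74 in Hoil1-/- f/f, 5.61, 1.62 and 1.84 in Hoil1+/+ Vil1cre and 3.73, 3.03 and 3.80 in Hoil1-/- Vil1cre libraries. The Lrmp interaction was -4.74 (SE 1.08, adjusted p = 0.274). The Alox5ap interaction was -6.12 (SE 1.59, adjusted p = 0.274). The tuft cell kinase Dclk1 was 14.9, 10.4 and 26.2 CPM in Hoil1+/+ f/f, 71.3, 106 and 26.8 in Hoil1-/- f/f, 5.05, 13.4 and 10.4 in Hoil1+/+ Vil1cre and 18.1, 8.88 and 18.8 in Hoil1-/- Vil1cre libraries. The Dclk1 interaction was -1.32 (SE 0.78, adjusted p = 0.461). Pou2f3, the transcription factor that specifies tuft cells, was 2.85, 0.401 and 6.13 CPM in Hoil1+/+ f/f, 18.6, 27.0 and 6.01 in Hoil1-/- f/f, 2.02, 0.147 and 3.59 in Hoil1+/+ Vil1cre and 4.89, 0.605 and 3.14 in Hoil1-/- Vil1cre libraries. The Pou2f3 interaction was -1.91 (SE 1.64, adjusted p = 0.62).

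The summed level of all 30 tuft cell genes was 1227, 669.6 and 814 CPM in Hoil1+/+ f/f, 3844, 5726 and 965 in Hoil1-/- f/f, 763, 824 and 764 in Hoil1+/+ Vil1cre and 774, 531 and 1384 in Hoil1-/- Vil1cre libraries. Library 5 exceeded every Hoil1+/+ Vil1cre library, so a sum above the controls was not limited to f/f mice. Per 100 CPM of pan-epithelial markers, the tuft cell sum without the shared Krt18 was 3.99, 12.6 and 9.48 CPM in Hoil1+/+ f/f libraries. It was 9.38, 16.5 and 8.79 in Hoil1-/- f/f, 1.68, 1.92 and 8.22 in Hoil1+/+ Vil1cre and 10.6, 17.6 and 5.34 in Hoil1-/- Vil1cre libraries. Relative to epithelial RNA the groups thus overlapped in both genotypes. In the composition fit 1 of 27 genes was below 0 at an unadjusted p under 0.05, with a median of -1.61, and Lrmp was at -3.40. The tuft cell median in that fit was -3.49 without library 23. With pan-epithelial scaling the tuft cell median was -0.29, against 2.56 for all genes. With that scaling 1 of 27 genes was above 0 and 1 below 0 at an unadjusted p under 0.05. Alox5ap is also expressed by myeloid cells, and the 12 pan-hematopoietic markers summed to 63.2, 72.9 and 67.0 CPM in Hoil1+/+ f/f, 201, 309.9 and 122 in Hoil1-/- f/f, 84.2, 61.3 and 74.1 in Hoil1+/+ Vil1cre and 96.1, 88.6 and 43.2 in Hoil1-/- Vil1cre libraries. The hematopoietic sum was higher in all 3 Hoil1-/- f/f libraries than in the Hoil1+/+ f/f libraries, and its part in the tuft cell values was not tested.

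Of the 24 epithelial type 2 response genes 18 were tested. Among these, 8 had an interaction below 0 at an unadjusted p under 0.05 and none above 0, with a median of -3.85 (2.99 in f/f, -0.53 in Vil1cre mice), or -3.78 with genes that had no count in a group set at their bound. In f/f mice 10 were higher in Hoil1-/- libraries at that level (2.58% of all genes) and in Vil1cre mice 1 was (2.07%). Pla2g4c, a cytosolic phospholipase A2 of the gamma class, was 0.569, 0.201 and 2.21 CPM in Hoil1+/+ f/f, 154, 503 and 154 in Hoil1-/- f/f, 3.14, 0.441 and 0.464 in Hoil1+/+ Vil1cre and 6.78, 1.53 and 8.42 in Hoil1-/- Vil1cre libraries. All 3 Hoil1-/- f/f libraries, library 23 included, were far above every other library, and among Vil1cre mice libraries 3 and 5 were above, and library 4 within, the range of the Hoil1+/+ libraries. Its interaction was -5.88 (SE 1.42, adjusted p = 0.274), with Hoil1 effects of 7.99 in f/f and 2.10 in Vil1cre mice. Gsdmc4, a gasdermin of the C family, was 23.05, 5.22 and 22.3 CPM in Hoil1+/+ f/f, 236, 263 and 208 in Hoil1-/- f/f, 73.7, 36.6 and 6.83 in Hoil1+/+ Vil1cre and 24.3, 7.79 and 51.7 in Hoil1-/- Vil1cre libraries. The Gsdmc4 interaction was -4.30 (SE 1.18, adjusted p = 0.274). Sprr2a3, a small proline-rich protein, was 6.54, 0 and 5.66 CPM in Hoil1+/+ f/f, 157, 235 and 54.7 in Hoil1-/- f/f, 23.8, 18.97 and 3.69 in Hoil1+/+ Vil1cre and 3.73, 2.46 and 10.9 in Hoil1-/- Vil1cre libraries. The Sprr2a3 interaction was -6.69 (SE 1.72, adjusted p = 0.274). Because Sprr2a1, Sprr2a2 and Sprr2a3 are near-identical, reads could have been split or lost among them and each value is uncertain.

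Retnlb, the goblet cell product resistin-like beta and chosen after its values were seen, was 0, 0 and 0 CPM in Hoil1+/+ f/f, 9.89, 60.8 and 25.2 in Hoil1-/- f/f, 0, 0 and 0 in Hoil1+/+ Vil1cre and 2.31, 0 and 1.65 in Hoil1-/- Vil1cre libraries. It had no count in any Hoil1+/+ library, and against the limit that 3 counts over the group allow it was at least 518-fold higher in Hoil1-/- f/f and at least 38.4-fold higher in Hoil1-/- Vil1cre libraries, where library 4 also had none. The goblet cell gene Clca1, a secreted calcium-activated chloride channel regulator, was 2484, 297 and 354 CPM in Hoil1+/+ f/f, 10009, 8791 and 2311 in Hoil1-/- f/f, 1971, 1606 and 467 in Hoil1+/+ Vil1cre and 696, 158 and 1732 in Hoil1-/- Vil1cre libraries. The Clca1 interaction was -3.40 (SE 1.42, adjusted p = 0.325). Muc2, the gel-forming mucin, was 4889.6, 543 and 859 CPM in Hoil1+/+ f/f, 7352, 4326 and 884 in Hoil1-/- f/f, 2364, 2099.6 and 678 in Hoil1+/+ Vil1cre and 1201, 372 and 2281 in Hoil1-/- Vil1cre libraries. The groups overlapped in both genotypes. Its interaction was -1.41 (SE 1.34, adjusted p = 0.663) and 1.23 in the composition fit. The goblet cell list had a median interaction of -1.30 with 1 of 21 genes below 0 at an unadjusted p under 0.05, and 0.60 in the composition fit. In that fit the type 2 response list had 5 genes below 0 and 1 above 0, with a median of -2.05, and Pla2g4c was at -4.29, Sprr2a3 at -4.11 and Gsdmc4 at -2.53. Without library 23 the median of the list in that fit was -0.59. Paneth and enteroendocrine cell lists had medians of -0.47 and -0.20 (-0.76 and -0.35 without library 23, 0.11 and 0.33 in the composition fit). With 12 libraries and no covariate, none of their 15 and 21 genes had an unadjusted p under 0.05.

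The IL-4 and IL-13 receptor signaling list (14 genes tested) had a median interaction of 0.49 (0.79 without library 23, 0.23 in the composition fit). With 12 libraries and no covariate, 2 genes were above 0 at an unadjusted p under 0.05. They were Il2rg, the common gamma chain, and Socs3, a feedback inhibitor of cytokine signaling. Il2rg was 13.9, 32.9 and 27.9 CPM in Hoil1+/+ f/f, 11.6, 19.2 and 12.8 in Hoil1-/- f/f, 15.6, 20.9 and 23.6 in Hoil1+/+ Vil1cre and 35.3, 42.6 and 43.2 in Hoil1-/- Vil1cre libraries. The 3 Hoil1-/- Vil1cre libraries were above all Hoil1+/+ Vil1cre libraries for Il2rg. Socs3 was 753, 1972 and 765 CPM in Hoil1+/+ f/f, 38.0, 104 and 290.3 in Hoil1-/- f/f, 276, 286 and 1233 in Hoil1+/+ Vil1cre and 619, 731 and 504 in Hoil1-/- Vil1cre libraries. Every Hoil1-/- f/f library was below every Hoil1+/+ f/f library.

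Epithelial defense and antigen presentation genes had interactions below 0. In the list of C-type lectins and enterocyte antimicrobial genes 7 of 14 were below 0 and 1 above 0 at an unadjusted p under 0.05, with a median of -2.36 (0.75 in f/f, -1.21 in Vil1cre mice). Duox2, the dual oxidase that releases hydrogen peroxide at the mucosa, was 104, 28.3 and 70.5 CPM in Hoil1+/+ f/f, 593, 654 and 135 in Hoil1-/- f/f, 342, 106 and 28.7 in Hoil1+/+ Vil1cre and 85.7, 27.6 and 109 in Hoil1-/- Vil1cre libraries. All Hoil1-/- f/f libraries exceeded the Hoil1+/+ f/f libraries. The Duox2 interaction was -3.87 (SE 1.23, adjusted p = 0.274). Nos2, inducible nitric oxide synthase, had an interaction of -2.67 (SE 0.82, adjusted p = 0.274), and Pigr, the receptor that carries immunoglobulin A across the epithelium, of -2.11 (SE 0.70, adjusted p = 0.274). Il18, an alarmin of the epithelium, was 0.854, 1.61 and 3.88 CPM in Hoil1+/+ f/f, 6.96, 11.5 and 2.67 in Hoil1-/- f/f, 10.5, 18.2 and 3.62 in Hoil1+/+ Vil1cre and 1.31, 0.525 and 1.65 in Hoil1-/- Vil1cre libraries. The Il18 interaction was -4.95 (SE 1.33, adjusted p = 0.274). Its values were lower in all Hoil1-/- Vil1cre libraries than in any Hoil1+/+ Vil1cre library. The list median was 0.24 in the composition fit.

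MHC class II presentation had 5 of 9 genes below 0 at an unadjusted p under 0.05 and a median of -2.50 (1.24 in f/f, -1.31 in Vil1cre mice). Ciita, the transactivator of MHC class II genes, was 2.99, 3.21 and 3.03 CPM in Hoil1+/+ f/f, 13.7, 9.80 and 11.2 in Hoil1-/- f/f, 6.84, 12.8 and 5.28 in Hoil1+/+ Vil1cre and 6.51, 4.04 and 4.62 in Hoil1-/- Vil1cre libraries. All 3 Hoil1-/- f/f libraries were above all 3 Hoil1+/+ f/f libraries. The alpha chain gene H2-Aa was 122, 25.0 and 47.8 CPM in Hoil1+/+ f/f, 146, 242 and 112 in Hoil1-/- f/f, 339, 293 and 23.7 in Hoil1+/+ Vil1cre and 57.3, 43.3 and 129.7 in Hoil1-/- Vil1cre libraries, with overlap in both genotypes. The interactions were -2.62 (SE 0.81, adjusted p = 0.274) for Ciita, -2.87 (SE 1.17, adjusted p = 0.314) for H2-Aa and -3.37 (SE 1.05, adjusted p = 0.274) for Ctss, a protease that trims the invariant chain. None of the 9 in the composition fit had an unadjusted p under 0.05, the median was -0.61 and Ciita was at -2.23.

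Of 24 cell death and inflammasome genes 6 were below 0 at an unadjusted p under 0.05, with a median of -0.77. Tradd, the adaptor of TNF receptor 1, was 26.2, 14.7 and 31.2 CPM in Hoil1+/+ f/f, 74.7, 63.9 and 37.6 in Hoil1-/- f/f, 89.0, 64.1 and 16.3 in Hoil1+/+ Vil1cre and 22.2, 19.8 and 36.6 in Hoil1-/- Vil1cre libraries. All Hoil1-/- f/f libraries were above the controls for Tradd. The Tradd interaction was -2.40 (SE 0.77, adjusted p = 0.274), and none of the 24 genes had an unadjusted p under 0.05 in the composition fit.

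The median effects of smooth muscle and pericyte genes were opposite in sign to those of the enterocyte genes, below 0 in f/f and above 0 in Vil1cre mice. Of 14 tested, 9 had an interaction above 0 at an unadjusted p under 0.05 (7.32% of all genes) and none below 0, with a median of 2.76 (-2.05 in f/f, 0.67 in Vil1cre mice). The estimates of 12 of 14 were below 0 in f/f and above 0 in Vil1cre mice, against 36.1% of all genes. The other 2 were above 0 in f/f and below 0 in Vil1cre mice (27.9% of all genes). In f/f mice 9 of 14 were lower in Hoil1-/- libraries at an unadjusted p under 0.05 (6.47%). In Vil1cre mice 0 of 14 were higher (2.07%) and 0 lower at that level. The genes named below are among the 12. Acta2, alpha smooth muscle actin, was 1433, 1852 and 2579 CPM in Hoil1+/+ f/f, 189, 906 and 170.0 in Hoil1-/- f/f, 589, 673 and 821 in Hoil1+/+ Vil1cre and 912, 1791 and 1778 in Hoil1-/- Vil1cre libraries. Tagln, the actin-binding transgelin, was 721, 935 and 1125 CPM in Hoil1+/+ f/f, 88.0, 471 and 83.2 in Hoil1-/- f/f, 273, 320.1 and 408 in Hoil1+/+ Vil1cre and 519, 883 and 962 in Hoil1-/- Vil1cre libraries. In both, all Hoil1-/- f/f libraries were below, and all Hoil1-/- Vil1cre libraries above, their Hoil1+/+ counterparts. Notch3, a receptor of mural cells, was 345, 629 and 625 CPM in Hoil1+/+ f/f, 56.4, 186 and 101 in Hoil1-/- f/f, 229.9, 221 and 344 in Hoil1+/+ Vil1cre and 284, 669 and 293 in Hoil1-/- Vil1cre libraries. Cspg4, the pericyte proteoglycan NG2, was 47.5, 92.7 and 129.9 CPM in Hoil1+/+ f/f, 17.6, 30.9 and 14.5 in Hoil1-/- f/f, 42.5, 47.2 and 41.9 in Hoil1+/+ Vil1cre and 70.1, 120.1 and 36.5 in Hoil1-/- Vil1cre libraries. In Notch3 and Cspg4 the highest Hoil1-/- f/f library was below the lowest Hoil1+/+ f/f library. Des, the muscle intermediate filament desmin, was 336, 432 and 416 CPM in Hoil1+/+ f/f, 35.3, 182 and 44.6 in Hoil1-/- f/f, 133, 173 and 228 in Hoil1+/+ Vil1cre and 210.0, 349 and 247 in Hoil1-/- Vil1cre libraries. Myh11, the smooth muscle myosin heavy chain, was 1041, 1209.5 and 1350.5 CPM in Hoil1+/+ f/f, 187, 598 and 40.3 in Hoil1-/- f/f, 287, 400.1 and 622 in Hoil1+/+ Vil1cre and 643, 1421 and 433 in Hoil1-/- Vil1cre libraries. For Des and Myh11 too the Hoil1-/- f/f libraries were below the Hoil1+/+ f/f libraries, and the Vil1cre groups of all 4 genes overlapped.

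The interactions were 3.32 (SE 0.85, adjusted p = 0.274) for Acta2, 3.35 (SE 0.85, adjusted p = 0.274) for Tagln, 2.87 (SE 0.69, adjusted p = 0.274) for Notch3 and 2.88 (SE 0.67, adjusted p = 0.274) for Cspg4. The summed level of the 14 genes was 4726, 6366 and 7392 CPM in Hoil1+/+ f/f, 784, 2984 and 977 in Hoil1-/- f/f, 2360.1, 2589 and 3176 in Hoil1+/+ Vil1cre and 3500.5, 6676 and 4631 in Hoil1-/- Vil1cre libraries. Per 100 CPM of blood endothelium markers it was 74.1, 28.3 and 57.6 in Hoil1+/+ f/f and 19.2, 38.0 and 6.94 in Hoil1-/- f/f libraries. It was 33.9, 38.2 and 15.8 in Hoil1+/+ Vil1cre and 15.5, 25.1 and 41.7 in Hoil1-/- Vil1cre libraries, with overlap in both genotypes. Per 100 CPM of pan-epithelial markers the f/f groups were apart, at least 35.2 in Hoil1+/+ and at most 14.7 in Hoil1-/- libraries, and the Vil1cre groups overlapped. Without library 23 all 14 had an interaction above 0 at an unadjusted p under 0.05 and the median was 2.61. With the covariate 7 were above 0 and 2 below 0 at that level, with a median of 2.39 (1.46 without library 23), where Acta2 was at 3.23, Tagln at 3.29, Notch3 at 1.86 and Cspg4 at 2.00. In Vil1cre mice 2 of 14 were then lower in Hoil1-/- libraries at that level and 0 higher, so part of the list ran against its median. The range of the median over fits without 1 library was 2.30 to 3.66.

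Blood endothelium and fibroblast markers had median interactions above 0, which were -0.13 and -0.42 in the composition fit that uses these same markers. Blood endothelium had 2 of 20 genes above 0 at an unadjusted p under 0.05 (7.32% of all genes) and a median of 1.47. Without library 23 these became 12 of 20 (11.3% of all genes) and 2.09, and the median was -0.13 in the composition fit. The adhesion molecule Pecam1 was 493, 1479 and 971 CPM in Hoil1+/+ f/f, 285, 547 and 956 in Hoil1-/- f/f, 503, 423 and 1375 in Hoil1+/+ Vil1cre and 1568, 1756 and 826 in Hoil1-/- Vil1cre libraries, with overlap in both genotypes. Cldn5, the endothelial tight junction claudin, was 219.9, 370.4 and 422 CPM in Hoil1+/+ f/f, 113, 206 and 85.2 in Hoil1-/- f/f, 75.2, 34.6 and 238 in Hoil1+/+ Vil1cre and 197, 233 and 587 in Hoil1-/- Vil1cre libraries. It was below the controls in every Hoil1-/- f/f library. The Cldn5 interaction was 2.87 (SE 0.94, adjusted p = 0.274) and 2.60 in the composition fit. Fibroblast markers had 2 of 18 above 0 at that level and a median of 1.53, and 9 of 18 and 2.70 without library 23. The collagen gene Col1a1 was 145, 945 and 1350.4 CPM in Hoil1+/+ f/f, 144, 709 and 2579 in Hoil1-/- f/f, 524, 226 and 702 in Hoil1+/+ Vil1cre and 2035, 3061 and 667 in Hoil1-/- Vil1cre libraries. Extracellular matrix genes had 4 of 29 above 0 at that level and a median of 1.56 (16 of 29 and 2.51 without library 23, -0.43 in the composition fit).

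Within the matrix and fibroblast lists some genes separated more clearly than the list. Eln, elastin, was 119, 372 and 535 CPM in Hoil1+/+ f/f, 42.0, 106 and 239.6 in Hoil1-/- f/f, 104, 70.9 and 213 in Hoil1+/+ Vil1cre and 319, 576 and 313 in Hoil1-/- Vil1cre libraries. The Eln interaction was 3.04 (SE 0.96, adjusted p = 0.274). Vim, the mesenchymal intermediate filament vimentin, was 593, 1204 and 1177 CPM in Hoil1+/+ f/f, 208, 462 and 624 in Hoil1-/- f/f, 376, 233 and 783 in Hoil1+/+ Vil1cre and 993, 1289 and 890.4 in Hoil1-/- Vil1cre libraries. The Vim interaction was 2.39 (SE 0.72, adjusted p = 0.274). In both genes every Hoil1-/- Vil1cre library was above every Hoil1+/+ Vil1cre library, and in the composition fit their interactions were 1.49 and 1.31. Timp1, an inhibitor of metalloproteinases, was 1.71, 3.56 and 7.05 CPM in Hoil1+/+ f/f, 0, 0 and 0 in Hoil1-/- f/f, 0, 0 and 2.31 in Hoil1+/+ Vil1cre and 4.68, 4.76 and 8.42 in Hoil1-/- Vil1cre libraries. It had no count in Hoil1-/- f/f libraries, at least 68.0-fold lower than in Hoil1+/+ f/f libraries. Il33, an alarmin of stromal and endothelial cells, was 12.1, 23.2 and 36.9 CPM in Hoil1+/+ f/f, 6.32, 18.6 and 22.3 in Hoil1-/- f/f, 8.64, 5.44 and 16.2 in Hoil1+/+ Vil1cre and 26.6, 36.3 and 45.6 in Hoil1-/- Vil1cre libraries. The Il33 interaction was 2.44 (SE 0.81, adjusted p = 0.274). The stromal Wnt, BMP and growth factor list had a median of 1.18 with 1 of 25 genes above 0 at an unadjusted p under 0.05, and the lymphatic list 0.55 with none of 10. The lymphatic median was 1.82 without library 23, with 2 of 10 above 0, and -0.10 without library 7. In the composition fit the stromal Wnt, BMP and growth factor median was -0.15 and the lymphatic median -0.96. Enteric glia and neuron genes were sparse, with 3 of 13 above 0 and 1 below 0 at an unadjusted p under 0.05. Their median was 2.10 (3.28 without library 23, 1.93 in the composition fit), and 4 of the 13 had no count in some group. The summed level of the list went the other way, with an interaction of -1.21 on the log2 scale. This sum was 300, 338 and 209 CPM in Hoil1+/+ Vil1cre and 162, 120 and 176 in Hoil1-/- Vil1cre libraries. The gene below 0 was Erbb3, at 260, 303 and 140 CPM and at 84.3, 37.7 and 75.8 CPM in these groups. Erbb3 alone thus made up most of the sum in Hoil1+/+ Vil1cre libraries. Over all 12 libraries it was highest in libraries 1, 10, 9, 6 and 2, which also had the highest pan-epithelial sums.

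Immediate early genes and heat shock genes, which are induced within minutes by growth factors, stress or tissue handling, had a median effect below 0 in f/f mice and near 0 in Vil1cre mice. The serum response factor site is shown for 2 members, since this factor drives many of them. The CArG box, a run of 6 A or T bases between CC and GG with up to 1 mismatch in all, was searched as above on both strands. It was found in 11 of 21 immediate early and heat shock genes with a promoter in the table (52.4%), in 4 of 11 smooth muscle and pericyte genes (36.4%), in 1 of 24 tuft cell genes (4.17%), in 9 of 13 type 2 response genes (69.2%) and in 6419 of 27025 promoters in all (23.8%). The match is in capitals.
Egr2 (chr10:67537474-67537523, plus strand): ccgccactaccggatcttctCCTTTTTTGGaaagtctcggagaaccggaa
Ier3 (chr17:35821622-35821671, plus strand): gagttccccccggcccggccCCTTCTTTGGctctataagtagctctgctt
As above, a match describes the letters only.

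Of 26 genes of this list 14 had an interaction above 0 at an unadjusted p under 0.05 and none below 0, with a median of 1.72 (-1.90 in f/f, -0.06 in Vil1cre mice), and 19 of 26 were lower in Hoil1-/- f/f at that level (6.47% of all genes). Egr1, a zinc finger transcription factor, was 5401, 6859 and 3836 CPM in Hoil1+/+ f/f, 385, 523 and 1348 in Hoil1-/- f/f, 1578, 2121 and 3963 in Hoil1+/+ Vil1cre and 3342, 3739.8 and 2389 in Hoil1-/- Vil1cre libraries. Ier3, a stress-induced survival protein, was 284, 634 and 339.6 CPM in Hoil1+/+ f/f, 19.8, 53.3 and 123 in Hoil1-/- f/f, 129, 142 and 358 in Hoil1+/+ Vil1cre and 305, 345 and 197 in Hoil1-/- Vil1cre libraries. Both were lowest in libraries 1 and 2. Zfp36, which destabilizes cytokine mRNAs, was 2071, 4646 and 1624 CPM in Hoil1+/+ f/f, 319.7, 376 and 483 in Hoil1-/- f/f, 789.8, 1008 and 2619 in Hoil1+/+ Vil1cre and 1169, 1362 and 1015 in Hoil1-/- Vil1cre libraries. Junb, an AP-1 subunit, was 1538, 2427 and 1161 CPM in Hoil1+/+ f/f, 307, 336 and 507 in Hoil1-/- f/f, 654, 893 and 1661 in Hoil1+/+ Vil1cre and 1065, 1211 and 723 in Hoil1-/- Vil1cre libraries. In all 4 every Hoil1-/- f/f library was below every Hoil1+/+ f/f library and the Vil1cre groups overlapped. The interactions were 3.14 (SE 0.75, adjusted p = 0.274) for Egr1, 3.11 (SE 0.87, adjusted p = 0.274) for Ier3, 2.51 (SE 0.72, adjusted p = 0.274) for Zfp36 and 2.06 (SE 0.61, adjusted p = 0.274) for Junb. Egr2, whose promoter is shown above and which was chosen after its values were seen, was 77.7, 53.1 and 3.14 CPM in Hoil1+/+ f/f, 2.38, 4.66 and 2.00 in Hoil1-/- f/f, 16.4, 43.5 and 35.9 in Hoil1+/+ Vil1cre and 29.8, 46.5 and 4.62 in Hoil1-/- Vil1cre libraries. Its level in library 8 was as low as in the Hoil1-/- f/f libraries. The list sum was 18241, 31839.8 and 13419.5 CPM in Hoil1+/+ f/f, 3493, 4763 and 6821 in Hoil1-/- f/f, 8045, 9797 and 21574 in Hoil1+/+ Vil1cre and 11999, 13964 and 10262 in Hoil1-/- Vil1cre libraries. In the composition fit 6 of 26 were above 0 at an unadjusted p under 0.05 and the median was 0.96, with Egr1 at 2.34 and Ier3 at 1.86. The time from dissection to sorting is not given in the sources used here, so its part in these values was not tested.

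NF-kappaB genes split. Of 24 tested 7 were above 0 and 2 below 0 at an unadjusted p under 0.05, with a median of 1.28, or 1.11 with genes that had no count in a group at their bound (-0.95 in f/f, -0.01 in Vil1cre mice). Icam1, an adhesion molecule and NF-kappaB target, was 405, 749 and 176 CPM in Hoil1+/+ f/f, 29.4, 50.6 and 41.6 in Hoil1-/- f/f, 64.2, 101 and 351 in Hoil1+/+ Vil1cre and 219, 318 and 109 in Hoil1-/- Vil1cre libraries. Nfkbiz, the inducible regulator IkappaB zeta, was 363, 825 and 268 CPM in Hoil1+/+ f/f, 29.5, 38.0 and 124 in Hoil1-/- f/f, 211, 149 and 445 in Hoil1+/+ Vil1cre and 291, 336 and 168 in Hoil1-/- Vil1cre libraries. Tnfaip3, the deubiquitinase A20, was 167, 318 and 39.3 CPM in Hoil1+/+ f/f, 30.7, 35.4 and 10.0 in Hoil1-/- f/f, 88.6, 65.4 and 170.0 in Hoil1+/+ Vil1cre and 98.1, 121 and 24.9 in Hoil1-/- Vil1cre libraries. For these 3 targets all Hoil1-/- f/f libraries were below all Hoil1+/+ f/f libraries, and libraries of Vil1cre mice overlapped. The 2 below 0 were Relb and Tnip1. Relb, a subunit of the noncanonical pathway, was 75.7, 45.4 and 43.3 CPM in Hoil1+/+ f/f, 141, 77.0 and 63.1 in Hoil1-/- f/f, 120.2, 135 and 63.0 in Hoil1+/+ Vil1cre and 51.1, 42.5 and 51.8 in Hoil1-/- Vil1cre libraries. Tnip1, an A20-binding inhibitor, was 75.0, 53.0 and 41.9 CPM in Hoil1+/+ f/f, 126, 107 and 75.7 in Hoil1-/- f/f, 150.5, 105 and 53.0 in Hoil1+/+ Vil1cre and 59.5, 41.6 and 55.5 in Hoil1-/- Vil1cre libraries. The interactions were 3.77 (SE 0.96, adjusted p = 0.274) for Icam1, 2.91 (SE 0.89, adjusted p = 0.274) for Nfkbiz, 2.37 (SE 1.06, adjusted p = 0.347) for Tnfaip3, -1.90 (SE 0.54, adjusted p = 0.274) for Relb and -1.84 (SE 0.54, adjusted p = 0.274) for Tnip1. The NF-kappaB list median in the composition fit was 0.47 with 3 genes above 0, and Icam1 was at 2.54 and Nfkbiz at 1.66. The partners of HOIL1 in the complex, Rnf31 (HOIP) and Sharpin, were at 37.9 to 84.1 and 20.3 to 44.6 CPM over the 12 libraries, and their groups overlapped in both genotypes. Of the 8 genes of linear ubiquitin chain assembly, Tnfaip3 was above 0 and Tnip1 below 0 at an unadjusted p under 0.05, and the median was -0.01.

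Interferon-stimulated genes were mixed, with 4 of 30 above 0 and 3 below 0 at an unadjusted p under 0.05. Their median was 0.98 (0.20 in the composition fit). Cxcl10, a chemokine for T cells, was 67.3, 76.0 and 9.37 CPM in Hoil1+/+ f/f, 3.30, 4.41 and 5.34 in Hoil1-/- f/f, 9.31, 15.7 and 23.1 in Hoil1+/+ Vil1cre and 48.8, 72.3 and 5.28 in Hoil1-/- Vil1cre libraries. The Cxcl10 interaction was 4.94 (SE 1.23, adjusted p = 0.274). Iigp1, an immunity-related GTPase, was 149.5, 169 and 103 CPM in Hoil1+/+ f/f, 33.3, 79.4 and 82.9 in Hoil1-/- f/f, 63.8, 41.6 and 151 in Hoil1+/+ Vil1cre and 215, 239.9 and 153 in Hoil1-/- Vil1cre libraries. Its groups were apart in both genotypes, lower in Hoil1-/- f/f and higher in Hoil1-/- Vil1cre libraries. The Iigp1 interaction was 2.35 (SE 0.68, adjusted p = 0.274) and 1.61 in the composition fit. Unfolded protein response genes had 1 of 25 above 0 at that level and a median of 0.35, and 7 of 25 above 0 and 0.68 in the composition fit. The chaperone Hspa5 was 1262, 1056 and 843 CPM in Hoil1+/+ f/f, 518, 639.5 and 713 in Hoil1-/- f/f, 760.3, 619 and 827 in Hoil1+/+ Vil1cre and 868, 685 and 1245 in Hoil1-/- Vil1cre libraries. It was below the controls in every Hoil1-/- f/f library. The Hspa5 interaction was 1.10 (SE 0.44, adjusted p = 0.313) and 1.19 in that fit. Manf, a secreted endoplasmic reticulum stress protein, was at 1.78 there and at 1.00 (SE 0.63, adjusted p = 0.485) without the covariate.

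Several processes had medians near that of all genes. DNA replication (0.06, 28 genes) and mitosis (-0.30, 28 genes) had no gene with an unadjusted p under 0.05, and neither did 38 cytosolic ribosomal protein genes (0.03). Crypt stem cell and Wnt target genes had a median of -0.23 with 1 of 22 above 0 and 2 below 0 at that level. The gene above 0 was Nkd1, a Wnt feedback inhibitor, at 44.1, 52.9 and 84.4 CPM in Hoil1+/+ f/f, 5.68, 16.9 and 24.6 in Hoil1-/- f/f, 15.8, 8.82 and 19.2 in Hoil1+/+ Vil1cre and 27.3, 57.5 and 35.2 in Hoil1-/- Vil1cre libraries. Axin2, another feedback inhibitor of the pathway, went the other way, at 83.7, 57.3 and 59.0 CPM in Hoil1+/+ f/f, 152, 62.2 and 75.3 in Hoil1-/- f/f, 49.8, 118 and 89.6 in Hoil1+/+ Vil1cre and 43.0, 46.6 and 29.5 in Hoil1-/- Vil1cre libraries. Nkd1 was lower in every Hoil1-/- f/f and higher in every Hoil1-/- Vil1cre library than in the matching controls. The Nkd1 interaction was 3.39 (SE 0.74, adjusted p = 0.274) and 2.51 in the composition fit. For Axin2 the interaction was -1.65 (SE 0.57, adjusted p = 0.283) and the f/f groups overlapped. Glycolysis and hypoxia genes had a median of -0.40 (0.12 in the composition fit), with 3 above 0 and 3 below 0 of 23 at that level. Villus-tip and purine metabolism genes lay farther from the median of all genes, at -1.90 (1.24 in f/f, -0.68 in Vil1cre mice). Of these 14 genes 7 were below 0 at an unadjusted p under 0.05, where 6.7% of all genes were. The 2 above 0, Fos and Junb, are also immediate early genes. The median of this list in the composition fit was -0.33.

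RNA of hematopoietic marker genes was present in these CD45- libraries. The pan-hematopoietic sum given above was higher in every Hoil1-/- f/f library than in any Hoil1+/+ f/f library. Which cells these transcripts came from was not tested. The 12 pan-hematopoietic genes had a median interaction of -2.85 (2.24 in f/f, -1.04 in Vil1cre mice), and -1.10 in the composition fit. Without the covariate 1 gene was below 0 at an unadjusted p under 0.05. It was Vav1, a guanine nucleotide exchange factor, at 10.7, 2.71 and 4.81 CPM in Hoil1+/+ f/f, 49.1, 93.5 and 8.54 in Hoil1-/- f/f, 10.8, 6.91 and 2.19 in Hoil1+/+ Vil1cre and 5.57, 3.03 and 4.95 in Hoil1-/- Vil1cre libraries. C1qa, a complement gene of macrophages, was 2.56, 1.76 and 3.88 CPM in Hoil1+/+ f/f, 4.58, 7.94 and 36.3 in Hoil1-/- f/f, 4.94, 8.97 and 2.40 in Hoil1+/+ Vil1cre and 1.63, 3.59 and 3.30 in Hoil1-/- Vil1cre libraries, highest in library 23. Jchain, the joining chain of secreted immunoglobulins, was 371, 16.8 and 53.3 CPM in Hoil1+/+ f/f, 324, 945 and 115 in Hoil1-/- f/f, 308, 199.98 and 4.88 in Hoil1+/+ Vil1cre and 95.9, 19.2 and 54.3 in Hoil1-/- Vil1cre libraries, with groups that overlapped. The 14 B cell and plasma cell genes summed to 345 to 14376 CPM per library, T cell genes to 2.97 to 34.7 CPM and macrophage and dendritic cell genes to 32.7 to 131 CPM, and in each of these lists the groups overlapped in both genotypes. B cell and plasma cell genes had 1 of 10 above 0 and 1 below 0 at that level, with a median of -2.11 (-1.0 without library 23, 1.13 in the composition fit). T cell genes had 1 of 9 above 0 and 1 below 0, with a median of -4.93, or -3.75 with genes that had no count in a group at their bound (-1.12 in the composition fit). The T cell median was -2.34 without library 23, with 2 of 9 above 0 and none below 0, and -0.16 without library 9. Macrophage and dendritic cell genes had 2 of 12 below 0 and none above 0, with a median of -1.59 (-1.66 in the composition fit). Without library 23 none of the 12 was below 0 at that level and the median was -0.42 (-0.43 in the composition fit), and without library 9 the median was -0.16.

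The genes with the smallest interaction p included several without a count in a whole group. Above 0, Grip2 (chromosome 6, 91761509 to 91827250), a scaffold protein with PDZ domains, was 44.7, 47.1 and 54.3 CPM in Hoil1+/+ f/f, 11.1, 8.12 and 4.67 in Hoil1-/- f/f, 6.62, 18.97 and 14.01 in Hoil1+/+ Vil1cre and 28.7, 39.9 and 17.2 in Hoil1-/- Vil1cre libraries. The Grip2 interaction was 3.73 (SE 0.66, adjusted p = 0.274). Dmpk (chromosome 7, 19083849 to 19093821), the myotonic dystrophy protein kinase of muscle, was 137, 124 and 159.6 CPM in Hoil1+/+ f/f, 25.7, 62.4 and 30.8 in Hoil1-/- f/f, 60.7, 61.0 and 64.2 in Hoil1+/+ Vil1cre and 97.7, 160.5 and 96.7 in Hoil1-/- Vil1cre libraries. The Dmpk interaction was 2.75 (SE 0.49, adjusted p = 0.274). Smarcd3 (chromosome 5, 24590818 to 24624411), a subunit of SWI/SNF chromatin remodelers used in muscle, was 32.3, 37.9 and 44.6 CPM in Hoil1+/+ f/f, 2.47, 8.56 and 10.5 in Hoil1-/- f/f, 13.6, 13.5 and 12.8 in Hoil1+/+ Vil1cre and 19.9, 36.4 and 23.4 in Hoil1-/- Vil1cre libraries. The Smarcd3 interaction was 3.42 (SE 0.67, adjusted p = 0.274). In these 3 genes every Hoil1-/- f/f library was below every Hoil1+/+ f/f library, and for Dmpk and Smarcd3 every Hoil1-/- Vil1cre library was above every Hoil1+/+ Vil1cre library. In the composition fit they were at 3.67, 2.53 and 2.77.

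Inhba, the beta A subunit of activin, was 1.28, 2.66 and 5.77 CPM in Hoil1+/+ f/f, 0, 0 and 0 in Hoil1-/- f/f, 0, 0 and 0 in Hoil1+/+ Vil1cre and 3.10, 8.31 and 2.97 in Hoil1-/- Vil1cre libraries. It was therefore at least 53.6-fold lower in Hoil1-/- f/f and at least 139.6-fold higher in Hoil1-/- Vil1cre libraries than in their controls, at levels of at most 8.31 CPM. Eno2, enolase of neurons, was 2.28, 2.46 and 13.3 CPM in Hoil1+/+ f/f, 0, 0 and 0 in Hoil1-/- f/f, 0, 0 and 0.345 in Hoil1+/+ Vil1cre and 2.99, 3.75 and 2.81 in Hoil1-/- Vil1cre libraries, at least 99.5-fold lower in Hoil1-/- f/f libraries. Klhl6, Zmynd15, Rpgrip1l, Frs3 and Kremen2 were likewise at 0 in all 3 Hoil1-/- f/f libraries and between 2.41 and 10.8 CPM in Hoil1+/+ f/f libraries, at least 68.2-fold lower for each. The Hoil1-/- f/f libraries had fewer detected genes than the Hoil1+/+ f/f libraries, 13003 to 15262 against 15588 to 16659, and 432 of the 2151 genes with an unadjusted p under 0.05 had no count in some group, against 1130 of all 15332 genes.

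Below 0, Marveld3 (chromosome 8, 109947914 to 109962203), a tight junction protein, was 27.7, 15.7 and 14.2 CPM in Hoil1+/+ f/f, 75.0, 62.6 and 30.6 in Hoil1-/- f/f, 57.6, 63.4 and 22.8 in Hoil1+/+ Vil1cre and 9.72, 7.30 and 17.5 in Hoil1-/- Vil1cre libraries. The Marveld3 interaction was -3.62 (SE 0.72, adjusted p = 0.274). Abhd3 (chromosome 18, 10642092 to 10706771), a phospholipase, was 5.69, 4.76 and 5.45 CPM in Hoil1+/+ f/f, 32.9, 11.5 and 6.67 in Hoil1-/- f/f, 25.6, 22.6 and 10.3 in Hoil1+/+ Vil1cre and 2.26, 1.94 and 4.13 in Hoil1-/- Vil1cre libraries. The Abhd3 interaction was -4.51 (SE 0.93, adjusted p = 0.274). Mkrn1 (chromosome 6, 39397804 to 39420462), a RING-type ubiquitin ligase, was 119.8, 67.6 and 64.7 CPM in Hoil1+/+ f/f, 214, 172 and 205 in Hoil1-/- f/f, 208, 203 and 101 in Hoil1+/+ Vil1cre and 86.8, 58.5 and 95.1 in Hoil1-/- Vil1cre libraries. The Mkrn1 interaction was -2.32 (SE 0.50, adjusted p = 0.274). For all 3 the groups were apart in both genotypes, higher in Hoil1-/- f/f and lower in Hoil1-/- Vil1cre libraries. Gk, glycerol kinase, was 20.3, 7.67 and 8.16 CPM in Hoil1+/+ f/f, 94.0, 64.5 and 13.9 in Hoil1-/- f/f, 62.3, 71.8 and 12.7 in Hoil1+/+ Vil1cre and 3.83, 1.57 and 9.57 in Hoil1-/- Vil1cre libraries. Adtrp, a lipid hydrolase, was 17.9, 4.41 and 8.66 CPM in Hoil1+/+ f/f, 37.5, 30.1 and 14.9 in Hoil1-/- f/f, 44.5, 40.9 and 13.1 in Hoil1+/+ Vil1cre and 5.94, 3.35 and 5.45 in Hoil1-/- Vil1cre libraries. Both were lower in every Hoil1-/- Vil1cre library than in the controls, with interactions of -5.60 and -4.17. Pax8, a paired box transcription factor, was 1.56, 0.702 and 0.463 CPM in Hoil1+/+ f/f, 13.9, 3.28 and 4.40 in Hoil1-/- f/f, 5.72, 16.5 and 2.23 in Hoil1+/+ Vil1cre and 0, 0 and 0 in Hoil1-/- Vil1cre libraries. It had no count in Hoil1-/- Vil1cre libraries, at least 125-fold lower than in Hoil1+/+ Vil1cre libraries. Acsf3, the mitochondrial malonyl-CoA synthetase, was 37.0, 18.2 and 19.8 CPM in Hoil1+/+ f/f, 64.0, 43.4 and 63.0 in Hoil1-/- f/f, 33.4, 38.4 and 29.0 in Hoil1+/+ Vil1cre and 20.1, 13.6 and 16.7 in Hoil1-/- Vil1cre libraries. Its groups were apart in both genotypes. The Acsf3 interaction was -2.19 (SE 0.48, adjusted p = 0.274). Snrnp25, a protein of the minor spliceosome, was 5.26, 6.22 and 11.01 CPM in Hoil1+/+ f/f, 62.9, 106 and 30.6 in Hoil1-/- f/f, 7.97, 6.76 and 5.84 in Hoil1+/+ Vil1cre and 9.88, 3.51 and 5.28 in Hoil1-/- Vil1cre libraries. Its groups were apart in f/f mice and overlapped in Vil1cre mice. The Snrnp25 interaction was -3.28 (SE 0.74, adjusted p = 0.274).

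The remaining genes with opposite effects at an unadjusted p under 0.05 in both genotypes were of several kinds. Lonp2, a peroxisomal protease, was 47.7, 44.7 and 46.8 CPM in Hoil1+/+ f/f, 77.8, 55.5 and 88.6 in Hoil1-/- f/f, 66.2, 81.8 and 61.6 in Hoil1+/+ Vil1cre and 42.3, 46.9 and 40.9 in Hoil1-/- Vil1cre libraries. It was higher in all Hoil1-/- f/f and lower in all Hoil1-/- Vil1cre libraries than in the controls. Its interaction was -1.36 (SE 0.35, adjusted p = 0.274) and -1.39 in the composition fit. Fam84a, Rab4a, a GTPase of endosomes, and Tmem106a had interactions of -3.67, -2.27 and -3.12.

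In the reverse direction, Wfs1, an endoplasmic reticulum membrane protein, was 62.3, 61.0 and 62.1 CPM in Hoil1+/+ f/f, 31.3, 37.0 and 15.7 in Hoil1-/- f/f, 31.3, 21.2 and 31.5 in Hoil1+/+ Vil1cre and 44.8, 68.4 and 69.3 in Hoil1-/- Vil1cre libraries. Its groups did not overlap in either genotype. Tgfb3, transforming growth factor beta 3, was 22.9, 34.0 and 59.6 CPM in Hoil1+/+ f/f, 5.41, 14.9 and 15.5 in Hoil1-/- f/f, 4.83, 10.0 and 17.3 in Hoil1+/+ Vil1cre and 26.7, 64.4 and 38.1 in Hoil1-/- Vil1cre libraries. Fads3, a fatty acid desaturase family member, was 23.5, 31.2 and 44.1 CPM in Hoil1+/+ f/f, 4.58, 12.7 and 10.0 in Hoil1-/- f/f, 8.86, 6.18 and 19.7 in Hoil1+/+ Vil1cre and 27.1, 37.9 and 34.3 in Hoil1-/- Vil1cre libraries. Megf6, a protein with epidermal growth factor repeats, was 30.2, 79.8 and 70.1 CPM in Hoil1+/+ f/f, 17.4, 18 and 26.2 in Hoil1-/- f/f, 12.3, 8.23 and 32.2 in Hoil1+/+ Vil1cre and 43.8, 39.5 and 62.2 in Hoil1-/- Vil1cre libraries. All 4 were lower in every Hoil1-/- f/f and higher in every Hoil1-/- Vil1cre library than in the controls. The interactions were 2.26 (SE 0.48, adjusted p = 0.274) for Wfs1, 3.70 (SE 0.82, adjusted p = 0.274) for Tgfb3, 3.35 (SE 0.71, adjusted p = 0.274) for Fads3 and 3.0 (SE 0.72, adjusted p = 0.274) for Megf6, and 2.48, 2.68, 2.64 and 2.27 in the composition fit. Hoxa9, Col19a1 and Zfp583 had no count in Hoil1-/- f/f or Hoil1+/+ Vil1cre libraries and between 0.210 and 4.29 CPM in the others.

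With the ratio of epithelial to endothelial and fibroblast markers in the model, 609 of the 2151 genes kept an unadjusted p under 0.05 and their sign, 445 above 0 and 164 below 0. That ratio does not hold the share of smooth muscle, glial, tuft or hematopoietic cells. The part of those cell shares in the values below was not tested. Among lists the medians farthest from 0 were then those of smooth muscle and pericyte (2.39), enteric glia and neuron (1.93), epithelial type 2 response (-2.05), macrophage and dendritic cell (-1.66) and tuft cell (-1.61). Without library 23 the same medians were 1.46, 1.67, -0.59, -0.43 and -3.49, so the size of the type 2 response and macrophage values in this fit rested on that library. The summed level of enteric glia and neuron genes, given above without the covariate, ran opposite to their median, and in Hoil1+/+ Vil1cre libraries most of that sum was Erbb3. With all 12 libraries the enterocyte brush border, transporter, lipid absorption and xenobiotic lists lay between -1.13 and -0.24. When each library was scaled by its pan-epithelial counts in place of TMM, the median interaction of all genes was 2.56, and 4213 genes had an unadjusted p under 0.05 (27.5%), 4146 above 0 (27%) and 67 below 0 (0.437%). That scaling changed the split of genes above and below 0 and is given here beside the TMM split.

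**Figure D4:**
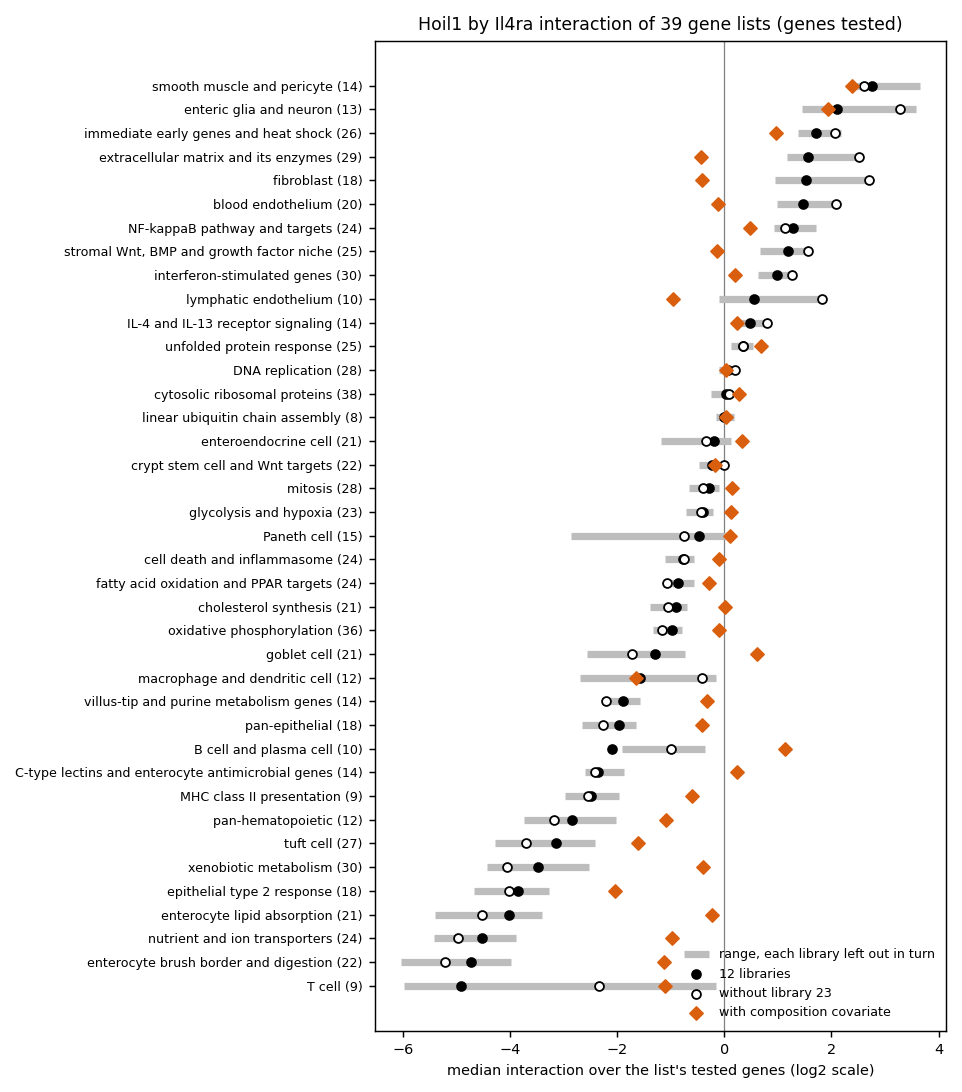
Median interaction on the log2 scale of 39 gene lists, with the number of genes tested in parentheses, in 12 libraries (filled), without library 23 (open) and with the composition covariate (diamonds); grey bars span the fits that leave out each library in turn. The enterocyte lists move from below -4 to near -1 or 0 with the covariate, while in 12 libraries smooth muscle and pericyte is at 2.39 and the epithelial type 2 response at -2.05 with it.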

How the data were processed

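RNA of sorted live CD45- cells of the mouse ileum was sequenced after poly-A selection in 12 libraries of 4 genotypes. The authors removed adapters (cutadapt), mapped the reads to the mm10 genome (STAR), assigned them to ENSEMBL genes (featureCounts) and deposited the raw counts without normalization. The versions and the strand setting are not given in the sources used here, so reads of overlapping genes cannot be told apart. Of 39056 genes, 18222 had no count in the 12 libraries. Genes passed filterByExpr (minimum count 10, minimum total 15), were scaled by TMM and were fitted with edgeR 4.0.16 (R 4.3.3) by the quasi-likelihood test with the group as the only factor, 3 contrasts (Hoil1 effect in f/f, in Vil1cre and their difference) and Benjamini-Hochberg adjustment (threshold 0.05). The model was tested on simulated data. Alternatives left out each library, or used RLE scaling, no filter on low counts, the likelihood ratio test, DESeq2 1.42.0, limma 3.58.1 (voom with quality weights), age, the composition ratio, scaling by pan-epithelial counts or Xist presence. p-values measure the spread between libraries, whose independence the labels do not state. Limits taken from 3 counts cover counting error only. Gene names came from the reference table, positions from GENCODE M21 (GRCm38) and promoters from RefSeq GRCm38.p6. Named are Rbck1, Il4ra and Ptprc, at most 10 genes per sign with the smallest interaction p and the same sign with and without library 23, at most 8 genes per direction with opposite effects, and at most 4 genes per list besides defining markers. Values of 2 genes that this rule chose are not reported here. The members and lists were chosen with earlier results of these data known.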

Additional observations from a re-analysis of the deposited data

Results flagged for a closer look

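In 24 of the named genes and list sums every library of Hoil1-/- f/f mice lay on one side of the Hoil1+/+ f/f libraries and every library of Hoil1-/- Vil1cre mice on the other side of the Hoil1+/+ Vil1cre libraries. Over all 15332 genes tested, 51 were so placed higher in f/f and lower in Vil1cre mice (0.333%), and 173 the reverse (1.13%). Many named genes were chosen by their interaction p or by opposite effects, so the 24 follow in part from that choice. The difference itself was tested as the interaction in edgeR for the genes, and none had an adjusted p under 0.05. For the summed level of smooth muscle and pericyte genes it was not tested.

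The summed level of smooth muscle and pericyte genes differed between the Hoil1 effects by 3.03 on the log2 scale (-2.20 in f/f and 0.83 in Vil1cre mice, from group means of log2 sums). Among genes lower in Hoil1-/- f/f and higher in Hoil1-/- Vil1cre libraries, the interaction was 3.32 for Acta2, 3.35 for Tagln, 2.75 for Dmpk, 3.42 for Smarcd3, 3.39 for Nkd1, 2.35 for Iigp1, 2.26 for Wfs1, 3.35 for Fads3, 3.70 for Tgfb3 and 3.0 for Megf6. For genes without a count in a group, the value with that group set at the limit of 3 counts was 9.04 for Timp1, 12.9 for Inhba, 11.4 for Eno2, 9.66 for Hoxa9, 10.4 for Col19a1 and 9.09 for Zfp583.

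Among genes higher in Hoil1-/- f/f and lower in Hoil1-/- Vil1cre libraries, the interaction was -2.20 for Slc25a20, -3.62 for Marveld3, -4.51 for Abhd3, -2.32 for Mkrn1, -2.19 for Acsf3 and -1.36 for Lonp2. It was -9.95 for Pax8 with the group without a count at its limit.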

How the results depend on the processing

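At the adjusted threshold the interaction gave 0 genes, and 0 to 65 when each library was left out (65 without library 2). It gave 358 by the likelihood ratio test, 479 by DESeq2 and 2074 by voom. At the unadjusted threshold it gave 2151, and 1446 to 3409 without a library (3409 without library 23, 3268 without library 11), 5144 by voom, 950 with the composition covariate and 4213 with pan-epithelial scaling. For the Hoil1 effect in f/f mice the adjusted count was 0, and 0 to 90 without a library (90 without library 2, 6 without library 23), 221 by the likelihood ratio test, 301 by DESeq2, 1 by voom and 4 with the covariate. The unadjusted count of 1388 ranged from 821 to 2161 (821 without library 7, 888 without library 8, 2161 without library 23) and was 2868 by voom. In Vil1cre mice the adjusted count was 0, and 0 to 1 without a library (1 without library 23), 8, 52 and 828 by the same 3 tools. The unadjusted count of 913 ranged from 365 to 2103 (451, 365, 2103, 534 and 418 without libraries 9, 10, 11, 3 and 4), and was 3769 by voom, 563 with the covariate and 545 with pan-epithelial scaling. Without library 23 the adjusted count of the interaction was 0, and 1 without a filter, 1223 by the likelihood ratio test, 1385 by DESeq2, 2206 by voom and 5 with age. Its unadjusted count of 3409 was 5263 by voom, 1013 with the covariate and 8475 with pan-epithelial scaling. Opposite effects in 138 genes ranged from 49 to 401 (305, 49, 53, 68, 365, 59, 62, 401, 78 and 56 without libraries 6, 7, 8, 1, 23, 9, 10, 11, 3 and 4), and were 214, 216 and 1070 by the 3 tools, 72 with the covariate and 87 with Xist, an alternative chosen after seeing the data. The causes were not tested. For 103 named genes, 1939 of 2163 settings left direction and side of the threshold as they were, 222 passed the threshold only in the alternative, and 2 reversed, Apoa1 (1.12) and Muc2 (1.23) with the covariate. Of 585 list medians 69 moved by more than the spread, 31 of them with the covariate and 34 of 468 without a library. No paired analysis was made because the labels do not state which libraries of different groups, if any, belong together. Depth (6.03 to 68.3 M counts) limits genes near 3 counts, and 3 libraries in a group limit all tests.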
